A study of Mus musculus with 4 samples.

Results

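Mitosis and spindle genes encode the machinery that drives cells into mitosis, condenses and attaches the chromosomes, separates them and splits the cell. They were chosen here as a named list of 47 genes, each read by the probe with the highest mean signal among the probes annotated to that gene symbol alone. Of the 47 genes, 39 had such a probe, and 38 of these lay in the brighter 50% of probes and were tested, among 8445 genes tested in all. The exception was Cdk1, whose probe was too dim. The members Ccnb1, Mki67, Smc2, Cenpf, Spc25, Hmmr, Tacc3 and Espl1 had no such probe, so their expression was not analysed here, though their promoters were. Membership of the list goes by gene names and uses no measured value, while the choice of probe and the brightness filter use the signal over all arrays. The list was chosen with earlier results of these data known.

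Transcripts were measured on 1-colour arrays in bone marrow depleted of cells with mature lineage markers, which is rich in stem and progenitor cells. One genotype was Mtg16 null, from females 8 to 12 weeks old of a line N4 backcrossed into C57BL/6, and the other was wild type, from C57BL/6 females of the same age range. Mtg16 (symbol Cbfa2t3) is a transcriptional corepressor of blood progenitors. Marrow of 4 mice was pooled for an RNA sample, each genotype had 2 arrays, and each of 2 array lots held 1 array of each genotype. The null mice carried a backcross and the wild-type mice did not, so genotype and the remaining donor background cannot be told apart. Whether each genotype's 2 samples were independent pools is not stated, so every p-value reflects only the scatter of these 4 samples, and that scatter may be technical. The study's title names progenitor proliferation, and the question here is how the transcripts of dividing cells compare between the genotypes.

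Cells make most mitotic transcripts late in the cycle, in G2 and M phase, and destroy many of the proteins at mitotic exit. In quiescence and early G1 the DREAM complex represses these genes, and in G2 the factors B-Myb and FoxM1 on the same MuvB core activate them. The promoter word bound by the MuvB core is called the cell cycle genes homology region, CHR, and the trimeric factor nuclear factor Y binds CCAAT boxes that are often found upstream of it. In bulk marrow such transcripts reflect how many cells are in G2 and M, so fewer dividing cells and less RNA per dividing cell cannot be told apart.

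The promoters show what these genes share beyond the list itself. RefSeq promoter windows of the build GRCm38.p6, each from 250 bases before to 50 bases after a gene's start, were found for 40 of the 47 members, in 43 windows. The CHR word TTTGAA, searched on both strands, was present in 32 of the 43 windows, or 74.4%, against 17.9% of all 32851 windows. The word CCAAT, likewise on both strands, was in 34 windows, or 79.1%, against 37.4% of all windows. Both were present in 69.8% of the member windows, against 6.95% of all windows. At least 2 CCAAT words were in 24 member windows, or 55.8%, against 11.7% of all windows. In the member windows 1 CHR match overlapped a CCAAT match, and 1 pair of CCAAT matches on opposite strands overlapped each other.

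The windows below are shown because their genes span the range of genotype differences, from the members with lower signal in the null arrays (Cenpa, Ncaph and Ccnb2) to those with similar or higher signal (Ube2c, Top2a and Racgap1). They were picked after the values were seen. Cenpa lies at chr5:30666636-30666935 on the plus strand, Ncaph at chr2:127133905-127134204 on the minus strand, Ccnb2 at chr9:70421505-70421804 on the minus strand, Ube2c at chr2:164769679-164769978 on the plus strand, Top2a at chr11:99024140-99024439 on the minus strand and Racgap1 at chr15:99651607-99651906 on the minus strand. Each is written 5′ to 3′ on the gene's strand, and capitals mark CHR words (TTTGAA or its complement TTCAAA) and CCAAT words (CCAAT or its complement ATTGG).
Cenpa: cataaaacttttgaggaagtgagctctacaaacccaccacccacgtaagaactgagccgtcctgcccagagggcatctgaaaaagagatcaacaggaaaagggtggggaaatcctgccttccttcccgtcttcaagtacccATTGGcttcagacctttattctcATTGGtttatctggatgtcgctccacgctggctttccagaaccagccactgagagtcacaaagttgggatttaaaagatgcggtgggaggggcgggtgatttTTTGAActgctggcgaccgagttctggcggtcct
Ncaph: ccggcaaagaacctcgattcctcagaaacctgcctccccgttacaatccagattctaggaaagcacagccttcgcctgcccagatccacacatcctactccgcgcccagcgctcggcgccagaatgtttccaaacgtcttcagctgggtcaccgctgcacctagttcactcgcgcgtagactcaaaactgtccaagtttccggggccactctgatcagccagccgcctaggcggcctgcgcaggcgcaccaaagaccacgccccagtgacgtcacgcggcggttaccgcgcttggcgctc
Ccnb2: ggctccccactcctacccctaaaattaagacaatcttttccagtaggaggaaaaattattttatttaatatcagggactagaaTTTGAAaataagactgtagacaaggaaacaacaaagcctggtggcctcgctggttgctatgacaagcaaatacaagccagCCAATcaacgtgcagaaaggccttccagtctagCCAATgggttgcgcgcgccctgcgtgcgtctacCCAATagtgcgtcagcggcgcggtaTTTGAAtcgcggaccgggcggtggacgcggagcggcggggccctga
Ube2c: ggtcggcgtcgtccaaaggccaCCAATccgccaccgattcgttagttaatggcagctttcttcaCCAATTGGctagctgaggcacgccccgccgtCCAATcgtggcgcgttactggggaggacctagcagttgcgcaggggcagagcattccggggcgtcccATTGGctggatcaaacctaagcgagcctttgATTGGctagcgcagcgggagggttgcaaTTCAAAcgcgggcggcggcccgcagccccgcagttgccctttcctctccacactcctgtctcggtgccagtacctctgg
Top2a: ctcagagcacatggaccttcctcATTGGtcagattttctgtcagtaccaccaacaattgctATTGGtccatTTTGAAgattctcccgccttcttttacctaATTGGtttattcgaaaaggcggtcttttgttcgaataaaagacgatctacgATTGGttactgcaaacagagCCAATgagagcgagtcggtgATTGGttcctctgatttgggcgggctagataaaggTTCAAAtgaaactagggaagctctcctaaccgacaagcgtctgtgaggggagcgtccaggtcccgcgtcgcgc
Racgap1: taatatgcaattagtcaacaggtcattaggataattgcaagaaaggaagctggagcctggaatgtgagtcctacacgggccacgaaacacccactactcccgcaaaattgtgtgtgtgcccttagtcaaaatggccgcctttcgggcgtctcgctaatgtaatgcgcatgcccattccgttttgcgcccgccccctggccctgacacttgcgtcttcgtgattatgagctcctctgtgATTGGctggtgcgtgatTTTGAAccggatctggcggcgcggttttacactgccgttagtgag
Ccnb2 had 3 CCAAT words on the gene strand, starting 87, 54 and 21 bases before the gene start, with CHR words 167 bases before it and at base 5 of the transcript. Cenpa had 2 CCAAT words on the other strand, 109 and 86 bases before the start, and a CHR word at base 17. Top2a and Ube2c each had 6 CCAAT words, with CHR words 179 and 23 bases before the start in Top2a and 1 at 29 bases before it in Ube2c. Racgap1 had 1 word of each kind close to the start. The Ncaph window held neither word, which says only that these letters are not in this window.

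**Figure D1:**
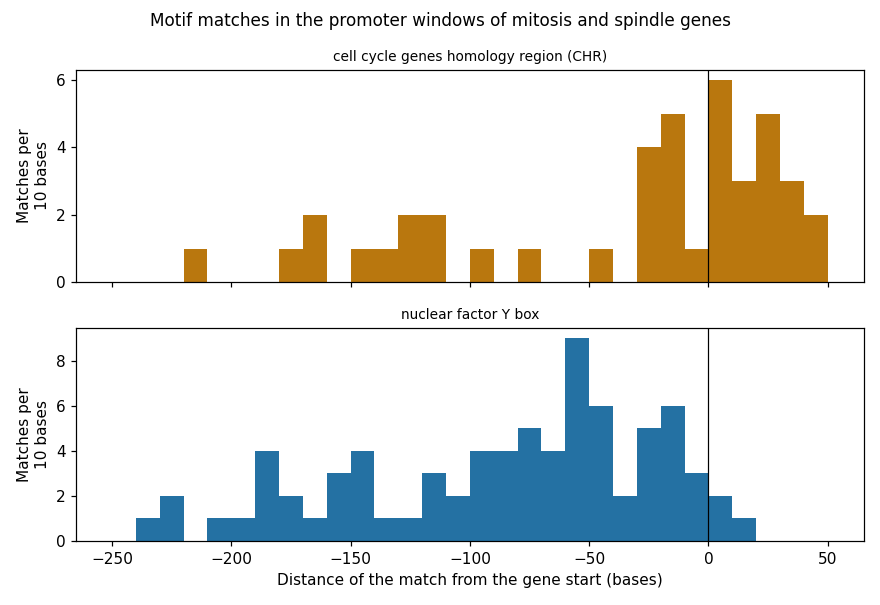
Distance in bases between each motif match and the annotated gene start (0) in the 43 promoter windows of the members, in bins of 10 bases; the upper panel counts 42 CHR matches and the lower panel 77 CCAAT matches (nuclear factor Y box). CHR matches gather at the gene start, with a median position of -14.5, and CCAAT matches lie further upstream, with a median of -71.

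The match near the start was the usual arrangement among the members: 30 of the 43 windows had a CHR word between 100 bases before and 50 bases after the start, 69.8%, against 8.01% of all windows. By contrast in count, of 35 windows from a list of 36 replication genes, 3 had a CHR word (8.57%) while 21 had a CCAAT word (60%). Of 125 windows from a wider list of 128 further mitosis genes, 35.2% had a CHR word and 57.6% a CCAAT word. Among the members, a CHR word was in 5 of the 10 windows of genes whose 2 null arrays both read lower than both wild-type arrays, and in 20 of the 24 windows of the other tested members. Windows, not genes, are counted here, and Bub3, Ect2 and Prc1 each had 2 overlapping windows that held the same CHR words. The 10 windows came from 9 genes, with 2 windows from Prc1, and the 24 windows from 22 genes. These shares describe small sets, split by the values of the same 4 arrays, and were not tested. Of the tested members 28.9% were lower without overlap, against 23.1% of all genes tested. The split goes by overlap and not by size: Pttg1, with a log2 difference of -0.09, was among the lower genes and Kif4, with -0.39, among the others.

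The whole-series facts that bear on the members are few. All 4 arrays share 1 distribution of deposited signal values with a median of 470 signal units. The probe of Cbfa2t3, the targeted gene, read 95520 and 118572 signal units in the null arrays, against 80854 and 100256 in the wild-type arrays, a log2 difference of 0.24 (adjusted p = 0.702). Whether this probe lies inside the deletion is unknown, so it checks the labels in neither direction. Of 10 progenitor markers 7 had a probe, all 7 were tested, and their summed signal was 229241 to 247457 units in the null arrays and 163289 to 184194 in the wild-type arrays. By sign 5 of the 7 were higher and 2 lower in the null arrays, where 52.1% of all genes tested were lower. One of the lower markers, Gata2, had a log2 difference of -0.01. The other, the stem cell factor receptor gene Kit, read 34022 and 41866 units in the null arrays, against 39213 and 47408 in the wild-type arrays. Of the T cell genes, Cd3e and Cd4 read between 120 and 325 units, near the 94.5 to 310 units of 3 Y-linked probes, which have no target in female mice. Cd3g, another T cell receptor subunit gene, read above that range, at 523 and 601 units in the null arrays, against 739 and 489 in the wild-type arrays. Their list of 4 T and natural killer cell genes nevertheless summed to 207700 to 238172 units in the null arrays and 67365 to 67544 in the wild-type arrays, almost all of it from the cytotoxic granule gene Nkg7.

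Over all genes, 0 of the 38 tested members passed limma at an adjusted p under 0.05 in either direction, where 0.118% of all genes tested passed as lower and 0% as higher. At an unadjusted p under 0.05 the count of members was also 0, where 6.83% of all genes tested were called lower and 9.65% higher. The smallest adjusted p of a member was 0.392, for Ncaph. With the array lot as a block, 0 members passed after adjustment and 2 were lower at an unadjusted p under 0.05, where 11% of all genes were called lower by that fit. These were Cenpa (adjusted p = 0.148 in the limma fit with the block) and Kif4 (adjusted p = 0.205). The differences were also small. None of the 38 members differed by 1.5-fold or more, against 23.4% of all genes tested and 15.6% of genes read by the brightest 25% of probes. At 2-fold or more the share of all genes was 9.64%, and again 0 members reached it. The largest differences were 1.49-fold lower in the null arrays for Cenpa and 1.28-fold higher for Racgap1. Both depended on single arrays. The log2 difference of Cenpa ran from -0.86 without wild-type array 2 to -0.29 without wild-type array 1, and that of Racgap1 from 0.01 without wild-type array 1 to 0.71 without wild-type array 2. With 1 array left out, 1 to 3 of the 38 members reached 1.5-fold, against 26.3% to 29.7% of all genes tested, and these members were Cenpa, Racgap1, Kif4, Anln and Ccnf.

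By size without sign, the median log2 difference of the 38 members was 0.15, against 0.28 over all genes tested. Among the brightest 25% of probes, which kept 36 members, it was 0.16, against 0.21 over all genes of that set. The 95% interval of the difference lay inside 2-fold either way for 31 of the 38 members, against 49.6% of all genes tested. The members were bright: the median member lay at percentile 94.3 of mean level among all probes, and 23 of the 38 lay above percentile 90. The share was not computed for genes of like brightness, so whether the narrower intervals go with brightness was not tested. The half-width of the 95% interval was 0.58 on the log2 scale for the median member and ran from 0.45 to 1.67 over the members. In this fit a gene with a difference smaller than its own half-width does not reach an unadjusted p under 0.05. For 21 of the 38 members the pooled SD of the replicates was above the genotype difference itself, as it was for 46.1% of all genes.

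**Figure D2:**
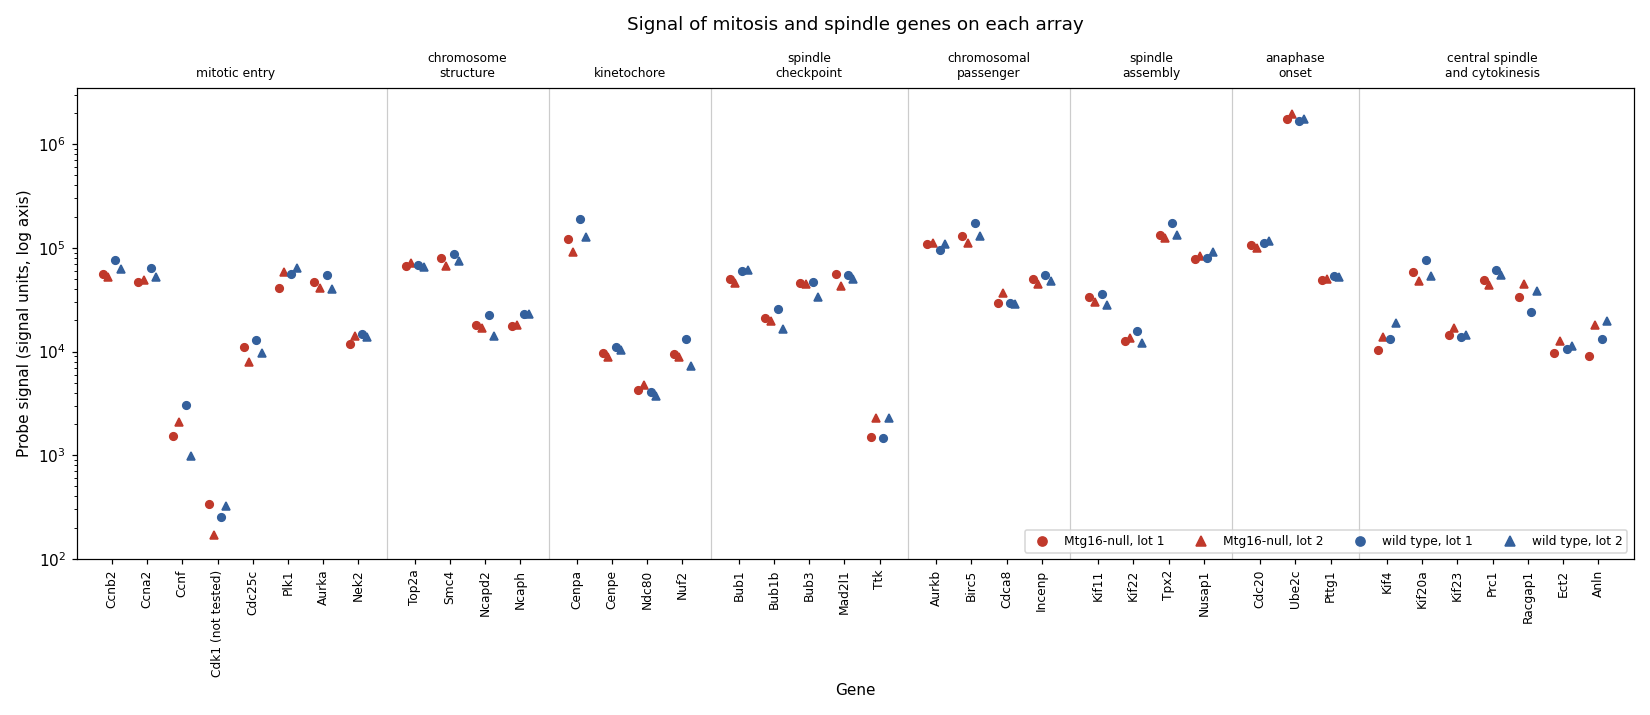
Signal of each member with a probe on a log axis, grouped by role; red marks are the 2 Mtg16-null arrays and blue marks the 2 wild-type arrays, circles lot 1 and triangles lot 2. The red and blue marks of a gene lie close together for nearly every member, with Cenpa at 91295 to 121230 units in the null arrays and 128433 to 190656 in the wild-type arrays; Cdk1 was too dim to be tested.

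More members were slightly lower than slightly higher in the null arrays. By sign 27 of 38 were lower and 11 higher, where 52.1% of all genes tested were lower by sign. In all, 19 of the 38 were lower in both lots, where 36.8% of all genes tested were, and 6 were higher in both lots, where 33.6% of all genes were. The other 13 had opposite signs in the 2 lots. In 11 members both null arrays read below both wild-type arrays, where 23.1% of all genes did, and in 2 members, Ndc80 and Aurkb, both read above, where 22.6% of all genes did. The share of non-overlapping lower members is near that background.

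The median log2 difference of the 38 members was -0.10, against -0.02 over all genes tested. Within the lots it was -0.24 in lot 1 and -0.08 in lot 2, against -0.04 and 0.01 over all genes. A single array moved this median: leaving out the wild-type array of lot 1 gave -0.04, and leaving out that of lot 2 gave -0.20. Wild-type array 1 had the highest of the 4 readings for 21 of the 38 members, where it did so for 31.3% of all genes. Null array 1 had the highest reading for 1 member, null array 2 for 9 and wild-type array 2 for 7.

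**Figure D3:**
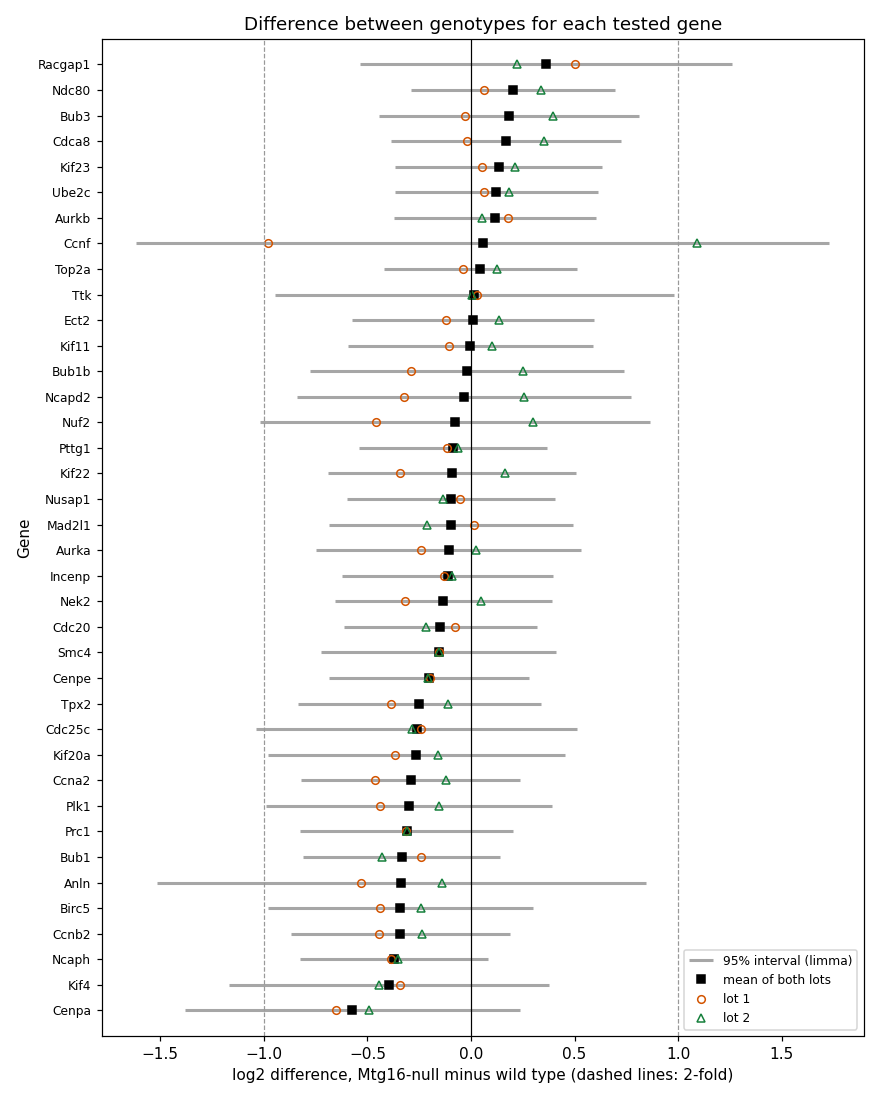
Log2 difference between Mtg16-null and wild-type arrays for each of the 38 tested members, in order of size (black squares), with the limma 95% interval (grey) and the difference within lot 1 (orange circles) and lot 2 (green triangles). Every interval covers 0, and the squares run from -0.57 for Cenpa to 0.36 for Racgap1; Ccnf is at -0.98 in lot 1 and 1.09 in lot 2.

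Most genes of mitotic entry had lower readings in the null arrays, by amounts that did not pass the test. Ccnb2, cyclin B2, which activates Cdk1 at the start of mitosis, read 55514 and 52858 signal units in the null arrays, against 75569 and 62297 in the wild-type arrays. Ccna2, cyclin A2, the partner of Cdk2 and Cdk1 in S and G2 phase, read 46607 and 48601 in the null arrays, against 64177 and 52831 in the wild-type arrays. For both cyclins every null array was below every wild-type array, with log2 differences of -0.34 (SE 0.19, adjusted p = 0.495) and -0.29 (SE 0.19, adjusted p = 0.564). Plk1, the polo-like kinase that drives centrosome maturation and many later steps, read 40896 and 57916 in the null arrays, against 55540 and 64508 in the wild-type arrays. The groups overlapped for Plk1, although each lot had the lower reading in the null array. Cdc25c, the phosphatase that removes the inhibitory phosphates of Cdk1, had differences of -0.24 and -0.28 in the 2 lots.

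The kinase gene Aurka, which acts at spindle poles, and Nek2, a kinase that separates centrosomes, had differences of -0.11 and -0.13 with opposite signs in the lots. Ccnf, which encodes a cyclin that serves as an F-box subunit of a ubiquitin ligase, read 1532 and 2106 signal units in the null arrays, against 3024 and 987 in the wild-type arrays. Its wild-type arrays spanned its null arrays, and its interval, from -1.62 to 1.73, was the widest of the members. Cdk1, the central mitotic kinase, read 335 and 169 in the null arrays, against 252 and 327 in the wild-type arrays. All 4 readings were close to or inside the Y-linked probes' range, at percentile 36.8 of mean level, so this probe gives no measure of Cdk1 beyond background. Of the 7 tested entry genes, 6 were lower and 1 higher by sign, where 52.1% of all genes tested were lower. In both lots 4 were lower and 0 higher, where 36.8% and 33.6% of all genes tested were. The median difference of the 7 was -0.26.

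Among the genes that shape chromosomes, Top2a, the topoisomerase that untangles sister DNA, had close readings on all 4 arrays. It read 66604 and 71631 signal units in the null arrays, against 68296 and 65555 in the wild-type arrays, a log2 difference of 0.05 with a 95% interval of -0.42 to 0.51. Ncaph, a non-SMC subunit of condensin I, read 17551 and 18129 in the null arrays, against 22961 and 23174 in the wild-type arrays. Its replicates were close and its groups did not overlap, and at -0.37 (SE 0.17, adjusted p = 0.392) it had the smallest p of all members. Other parts of the same complex were nearer to 0: Smc4, an ATPase core subunit shared by both condensins, had -0.16, and Ncapd2, a further condensin I subunit, -0.03, with -0.32 in lot 1 and 0.26 in lot 2. Whether the subunits differ from each other was not tested.

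The kinetochore members pointed in different directions. Cenpa, the histone H3 variant that marks centromeres, read 121230 and 91295 signal units in the null arrays, against 190656 and 128433 in the wild-type arrays, with log2 differences of -0.65 in lot 1 and -0.49 in lot 2. Its mean difference of -0.57 (SE 0.29, adjusted p = 0.455) was the largest of the members, about equal to the 0.57 between its 2 wild-type arrays. Both null readings were nevertheless below both wild-type readings. Ndc80, the outer kinetochore protein that binds microtubules, read 4227 and 4758 in the null arrays, against 4041 and 3758 in the wild-type arrays, a difference of 0.20. Its partner in the same complex, Nuf2, read 9517 and 8892 in the null arrays, against 13077 and 7221 in the wild-type arrays, so that its wild-type arrays lay on either side of the null arrays. Cenpe, a kinetochore motor that brings chromosomes to the spindle equator, had 2 probes. Its chosen probe gave -0.20 with no overlap, and the dimmer probe gave 0.06 with 0.01 and 0.12 in the 2 lots, so the probes disagreed in sign.

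Of the spindle checkpoint genes, which delay anaphase until every kinetochore is attached, Bub1 was lower without overlap. Bub1, a checkpoint kinase, read 50474 and 45678 signal units in the null arrays, against 59642 and 61491 in the wild-type arrays, a log2 difference of -0.33 (SE 0.17, adjusted p = 0.456). The related Bub1b, which encodes BubR1 of the checkpoint effector complex, had -0.02, and Bub3, the binding partner of both proteins, 0.18. Mad2l1, which encodes the Cdc20 inhibitor Mad2, had -0.10 by its chosen probe and -0.05 by the dimmer one. Ttk, the Mps1 kinase at the head of the checkpoint, had 0.02, with 0.03 and 0.004 in the lots. It read 1490 and 2281 in the null arrays, against 1460 and 2275 in the wild-type arrays, so that lot 2 read above lot 1 in both genotypes while the genotypes matched within each lot.

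The chromosomal passenger complex corrects faulty attachments and later acts at the midzone, and its 4 subunit genes did not share a direction. Birc5, survivin, read 129269 and 111198 signal units in the null arrays, against 175504 and 131288 in the wild-type arrays. Aurkb, the kinase of the complex, read 108341 and 112156 in the null arrays, against 95647 and 108263 in the wild-type arrays. Neither gene had overlapping groups, with Birc5 lower at -0.34 (SE 0.23, adjusted p = 0.578) and Aurkb higher at 0.12 (SE 0.18, adjusted p = 0.833). The Aurkb groups nearly touched, at 108341 units in null array 1 and 108263 in wild-type array 2. Cdca8, which encodes borealin, had 0.17, and the scaffold gene Incenp -0.11. Both had overlapping groups.

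All 4 tested spindle assembly genes were lower by sign, with a median of -0.09, where 52.1% of all genes tested were lower by sign. Tpx2, an activator of Aurora A and a microtubule nucleation factor, read 132908 and 124358 signal units in the null arrays, against 173956 and 134118 in the wild-type arrays. It was the member of this group without overlap, at -0.25 (SE 0.21, adjusted p = 0.674). The wild-type reading of lot 1 stood above the other 3. Kif11, the Eg5 motor that pushes spindle poles apart, had -0.003, the chromokinesin gene Kif22 -0.09 and Nusap1, a microtubule-bundling protein gene, -0.10.

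The genes of anaphase onset had narrow spreads. Cdc20, which activates the anaphase-promoting complex, read 106400 and 98952 signal units in the null arrays, against 112156 and 115208 in the wild-type arrays, a log2 difference of -0.15 (SE 0.17, adjusted p = 0.760). Pttg1, securin, the inhibitor of separase, read 49342 and 50325 in the null arrays, against 53401 and 52516 in the wild-type arrays, a difference of -0.09. Both were lower without overlap, by amounts that the fit could not tell from 0. Ube2c, the ubiquitin-conjugating enzyme of the anaphase-promoting complex, read 1731929 and 1966007 in the null arrays, against 1657822 and 1731929 in the wild-type arrays, a difference of 0.12. These values are near the top of the deposited range, whose highest value was 3093946.

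Genes of the central spindle and cytokinesis held both ends of the list apart from Cenpa. Prc1, which bundles antiparallel microtubules of the midzone, read 49491 and 43800 signal units in the null arrays, against 61528 and 54239 in the wild-type arrays. It had -0.31 in both lots (SE 0.19, adjusted p = 0.514). Kif4, a chromokinesin that Prc1 recruits to the midzone, read 10459 and 13900 in the null arrays, against 13283 and 18921 in the wild-type arrays. Lot 2 read higher than lot 1 in both genotypes, so the groups overlapped although each lot had the null array lower, with differences of -0.34 and -0.44. Racgap1, a subunit of centralspindlin, read 33794 and 45085 in the null arrays, against 23894 and 38651 in the wild-type arrays, higher by 0.50 and 0.22 in the lots.

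Kif23, the motor subunit of centralspindlin, had 0.13, and Ect2, the exchange factor that centralspindlin brings to the midzone to activate RhoA, had 0.01. Kif20a, a midzone motor, had -0.26. Anln, anillin, a scaffold of the contractile ring, read 9074 and 17876 signal units in the null arrays, against 13130 and 19671 in the wild-type arrays. Its difference was -0.34 with all arrays and 0.15 without null array 1, and the gap between its 2 null arrays, 0.98 on the log2 scale, was larger than the difference between the genotypes.

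The wider mitosis list, measured on the same arrays, also held more lower than higher genes. Of its 128 genes 93 had a probe and 89 were tested. After adjustment 0 passed in limma, and at an unadjusted p under 0.05 there were 3 lower and 2 higher of the 89, where 6.83% of all genes tested were lower and 9.65% higher. By sign 63 were lower and 26 higher, again beside 52.1% lower over all genes, and the median log2 difference was -0.13. In both lots 43 were lower and 10 higher, where 36.8% and 33.6% of all genes tested were. Wild-type array 1 had the highest reading for 41 of the 89, against 31.3% of all genes. Null array 1 had the lowest for 33, against 23.3% of all genes. Further kinetochore and centromere genes, picked out after the values were seen, were lower most often, in 21 of 23. Of these, 17 were lower in both lots, the median was -0.23, and 0 had an unadjusted p under 0.05 in limma. Subunits and regulators of the anaphase-promoting complex had a median of -0.03. The lowest tested genes with 1 sign in both lots were the spindle motor gene Kif15 (-0.65), the cytokinesis kinase gene Cit (-0.56) and the spindle pole gene Aspm (-0.55). Kif15 read 1066 and 2359 signal units in the null arrays, against 2496 and 2482 in the wild-type arrays. Its low value came from null array 1, without which the difference was -0.08.

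The highest tested genes of the wider list with 1 sign in both lots were Cep55, Cdc25b and Rbl2. Cep55, which acts in abscission, read 1976 and 2555 signal units in the null arrays, against 1265 and 992 in the wild-type arrays, a log2 difference of 1.00 (SE 0.24, adjusted p = 0.179). Cdc25b, a phosphatase that starts the activation of mitotic Cdk1, read 19692 and 22501 in the null arrays, against 9520 and 12072 in the wild-type arrays, a difference of 0.97 (SE 0.21, adjusted p = 0.151). Both had null arrays above both wild-type arrays, with differences of 0.64 and 1.36 for Cep55 and 1.05 and 0.90 for Cdc25b in the 2 lots. Rbl2, the pocket protein p130 of the DREAM complex, had 0.31 (adjusted p = 0.643) and 0.08 without wild-type array 2. Among probes too dim to be tested, Cenpb, a centromere DNA-binding protein gene, read 477 and 494 units in the null arrays, against 361 and 95.5 in the wild-type arrays. Clasp2, whose protein stabilises microtubule plus ends, read 109 and 123 in the null arrays, against 194 and 158 in the wild-type arrays. All 4 Clasp2 readings were inside the Y-linked probes' range, as was 1 of the 4 Cenpb readings.

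Of the factors that act on CHR and CCAAT words, Mybl2, B-Myb, read 5557 and 4743 signal units in the null arrays, against 6942 and 7294 in the wild-type arrays. It was lower without overlap, at -0.47 (SE 0.18, adjusted p = 0.340). Foxm1 read 826 and 1390 in the null arrays, against 2127 and 1174 in the wild-type arrays, with -1.37 in lot 1 and 0.24 in lot 2. Lin52, a MuvB subunit gene, also had opposite signs in the lots (-1.35 and 0.20), as did Nfya, the gene of a DNA-contacting subunit of nuclear factor Y (-0.37 and 1.49). Lin54, the DNA-binding subunit gene of MuvB, had -0.10, Rbl1, the pocket protein p107, -0.13 and Nfyc -0.10.

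**Figure D4:**
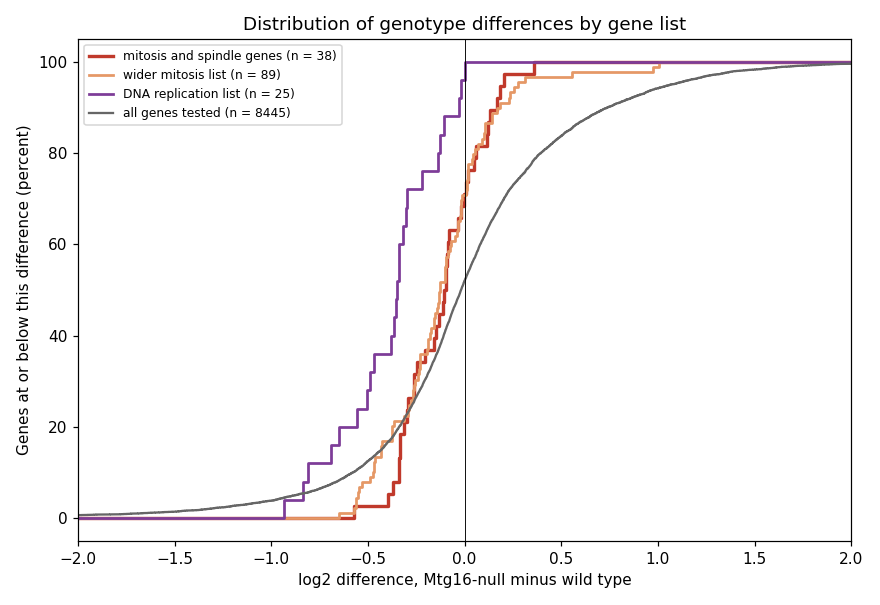
Percent of genes at or below each log2 difference, Mtg16-null minus wild type, for the 38 mitosis and spindle genes, the 89 further mitosis genes, the 25 DNA replication genes and all 8445 genes tested; the axis is cut at -2 and 2. The mitosis curves rise steeply near 0 (median -0.10 and -0.13) and the replication curve lies to their left (median -0.35).

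Genes of DNA replication, which act earlier in the cycle, were also mostly lower in the null arrays. Of 25 tested, 24 were lower by sign, against 27 of 38 mitosis members and 52.1% of all genes tested. Without overlap 17 were lower, or 68%, against 28.9% of the members and 23.1% of all genes tested. At an unadjusted p under 0.05, 7 of the 25 were lower and 0 higher, beside 6.83% and 9.65% of all genes, and 0 passed after adjustment. Their median difference was -0.35, with -0.37 and -0.38 in lots 1 and 2. The difference between the 2 lists was not tested, and no set test was used.

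Late neutrophil genes, and most early granulocyte and erythroid genes, differed between the genotypes more than any mitosis member did. Some other markers lay inside the members' range, among them Klf1 (-0.34), Meis1 (0.31) and C1qa (0.23). All 11 late neutrophil genes were lower by sign with a summed signal of 148105 to 158427 units in the null arrays and 1369465 to 1485619 in the wild-type arrays. Of these, 7 passed after adjustment, and 0 of the 11 did with the array lot as a block, where each had an adjusted p of 0.113 in limma. With any array left out 0 genes of the whole table passed. The 13 erythroid genes with a probe summed to 1345002 to 1529000 units in the null arrays and 2171219 to 3047175 in the wild-type arrays, and all 12 tested were lower by sign with 0 passing after adjustment. The 7 early granulocyte genes were all higher by sign with 0 passing, with sums of 3460852 to 4112756 in the null arrays and 1602691 to 1689228 in the wild-type arrays. The 3 megakaryocyte genes with a probe summed to 792336 to 908129 in the null arrays and 471822 to 473786 in the wild-type arrays. The 3 B cell genes with a probe summed to 20728 to 24749 units in the null arrays and 12434 to 18850 in the wild-type arrays, mostly from Cd79b. In the same list Ms4a1, which encodes the surface protein CD20, went the other way on a probe too dim to be tested, at 68.0 and 143 units in the null arrays, against 1444 and 1767 in the wild-type arrays. Macrophage genes summed to 1561 to 1638 in the null arrays and 1133 to 1357 in the wild-type arrays. Among them Adgre1 and Vcam1 were too dim to be tested, at 139 to 367 units, in or near the Y-linked probes' range. Stroma and endothelium genes summed to 14979 to 15275 in the null arrays and 10663 to 11372 in the wild-type arrays. In the stroma and endothelium list Pecam1 (0.95) and Cxcl12 (0.56) were higher, while the collagen gene Col1a1 was lower without overlap, at 1874 and 1409 units in the null arrays, against 3023 and 2492 in the wild-type arrays. Cdh5, the endothelial cadherin gene, was lower as well, at -1.37 on a probe too dim to be tested. The summed signal of the 38 members overlapped between the groups, at 3360801 and 3537120 units in the null arrays and 3587866 and 3428345 in the wild-type arrays. That overlap rested on Ube2c, which alone read 1731929 and 1966007 in the null arrays, against 1657822 and 1731929 in the wild-type arrays. The other 37 members summed to 1628872 and 1571113 units in the null arrays, against 1930044 and 1696416 in the wild-type arrays, with no overlap. Ube2c was left out after its values were seen, and a sum weighs the brightest genes most. Taken singly, 23.1% of all genes tested were lower without overlap, and no such share was computed for sums of genes. The cell types of the marker lists divide to different extents, and the part of the marker shifts in the values of the mitosis genes was not tested.

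**Figure D5:**
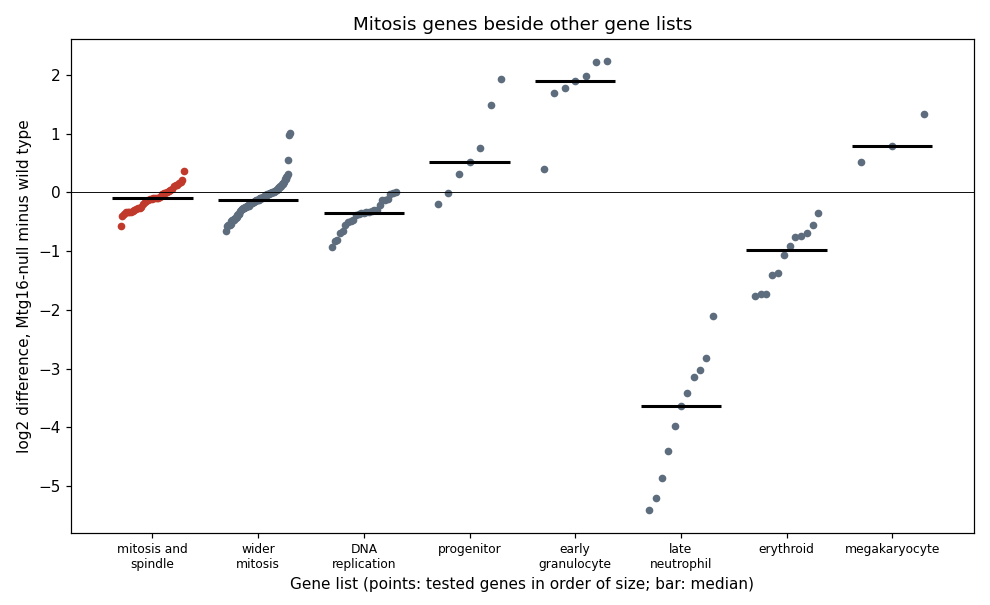
Log2 difference, Mtg16-null minus wild type, of each tested gene (points, in order of size) and the median (bar) for the mitosis and spindle genes (red), the wider mitosis list, the DNA replication list and 5 lists of cell type markers (grey). The members lie between -0.57 and 0.36, while late neutrophil genes lie between -5.41 and -2.11 and early granulocyte genes between 0.40 and 2.23.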

How the data were processed

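Lineage-depleted marrow RNA of Mtg16-null and wild-type mice was measured on 4 arrays, 2 of each genotype. Per the labels' protocols, cRNA labelled with digoxigenin was put on ABI arrays, 1 label per array. The authors deposited a linear intensity for each of 33012 probes. Once sorted, the 4 arrays matched each other to within 0.286%, as after quantile normalization. Which software and background correction made them is not stated in the labels. Array number, not read depth, limits the precision.

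Gene symbols came from GEO's platform annotation: 14411 probes had 1 gene symbol, 247 several and 18354 none. Of the 14411, 14402 matched the RefSeq table of GRCm38.p6 by Entrez identifier, which changed 0 symbols. Signals under the 1st percentile (75.8 units) were raised to it, log2 was taken, the brighter 50% of probes were kept, and the probe with the highest mean signal stood for a gene, giving 8445 genes. Null minus wild type was fitted with limma 3.58.1 in R 4.3.3 (lmFit, eBayes; 2 residual and 2.11 prior degrees of freedom) with genotype as the only term, and Benjamini-Hochberg adjustment over all 8445 genes at 0.05. The fit was also run on simulated data, with the same scatter for every gene and differences far larger than those of the members. That run therefore does not bear on differences as small as theirs. Figures were drawn with matplotlib 3.10.9.

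The series text ties the replicate number to the array lot, so the numbers pair the arrays. Replicate 1 minus replicate 2 correlated between the genotypes across the 8445 genes (r = 0.50; genes are not independent replicates). Members and lists were chosen with earlier results of these data known. Every member is accounted for. Signals on every array are given for the member with the smallest p in each role group, Top2a and Cdk1, with further examples chosen after their values were seen. From the wider list the rule names the 3 highest and 3 lowest genes with the same sign in both lots, which takes in the untested Cenpb and Clasp2, and the regulators of mitotic transcription. Aspm and, beside its place as a regulator, Rbl2 were added as the next tested genes after their values were seen. Alternatives were the lot as a block, other filters, no floor, a variance trend, cyclic loess, the mean of a gene's probes and leaving out each array.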

Additional observations from a re-analysis of the deposited data

How the results depend on the processing

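With 2 arrays a genotype, 0 members passed after adjustment in any of the 12 settings, and the lowest adjusted p of a member over all of them was 0.148. The number of genes called over the whole table, 10 in the fit reported, was 0 with the lot as a replicate block, 0 without the filter on dim probes, 291 when only the brightest 25% of probes were kept, 295 under limma's variance trend, and 0 with any array left out. Members lower at an unadjusted p under 0.05 numbered 2 with the replicate block, 1 in the brightest 25% of probes, 1 under the variance trend and 0 to 1 with an array left out (1 without wild-type array 2), against 0 in the fit reported. The replicate block changed no call of a member after adjustment. Under the settings that keep all arrays, all 38 members kept their sign. With an array left out, 24 of 38 did (a lone array was taken to vary like the other genotype's). Counts over both lots could not be run there. The median of the members ran from -0.20 to -0.04 with an array left out. The members that changed sign with an array left out, with the lowest and highest log2 difference, were Ccnf (-0.75 to 0.86), Aurka (-0.33 to 0.11), Top2a (-0.0066 to 0.10), Ncapd2 (-0.38 to 0.31), Nuf2 (-0.51 to 0.35), Bub1b (-0.33 to 0.29), Bub3 (-0.042 to 0.41), Mad2l1 (-0.28 to 0.086), Ttk (-0.30 to 0.34), Kif11 (-0.19 to 0.18), Kif22 (-0.29 to 0.11), Nusap1 (-0.19 to 0.0014), Ect2 (-0.18 to 0.19) and Anln (-0.82 to 0.15), and the cause was not tested.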
